A study of Mus musculus with 6 samples.

Results

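The genes described here encode the secretory granule and the machinery of regulated exocytosis. The members are 39 genes named for their known function in this pathway, and they were chosen with earlier results of these data known. All 39 were found in the mouse annotation, among 22367 protein-coding genes on chromosomes 1 to 19, X and Y. For each gene, ATAC-seq peaks that overlapped the gene body or 10 kb on either side were collected in 3 mouse cell lines. A peak within 1 kb of an annotated start of a protein-coding transcript was counted as a start-site peak, and the remainder as other peaks.

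The study compared cell lines that differ in the activity of *Pax6*, a transcription factor gene of eye, brain and pancreas. Pax6-HIGH cells are β-TC3, a line from a mouse insulinoma, a tumour of the insulin-secreting β cells. Pax6-ON cells are MV+, a line grown out of the lens epithelium of a wild-type C57BL6 mouse, and Pax6-OFF cells are RAG, a renal adenocarcinoma line of a BALB/c mouse. None of the lines was treated or genetically modified for the assay, and per the methods none was authenticated. Each is a single line, so differences between tissues, strains and lines cannot be told apart. Each line gave 2 libraries from 50000 nuclei, and nuclei of Pax6-ON cells were prepared with 0.2% NP40 against 0.1% for the other lines, so detergent and line cannot be told apart either. ATAC-seq measures open chromatin by the sites at which the Tn5 transposase can cut.

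Endocrine cells and neurons store peptides in dense-core granules. Granins and processing enzymes fill the granule, Rab GTPases and their effectors bring it to the plasma membrane, priming factors and complexins prepare it, and SNARE proteins fuse it when a synaptotagmin senses calcium. In many other cells this set of genes is kept silent, in part by the repressor REST, which binds a DNA element called RE1.

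The peaks were called on the pooled replicates of each line, so no value below has a replicate error and no difference between lines could be tested. Pax6-HIGH, Pax6-ON and Pax6-OFF cells had 28024, 9821 and 14022 peaks from 100254099, 130955836 and 102223606 fragments. Because the lists differ in length, some counts are also given for the 9821 peaks of highest pileup in each line, called the equal-number lists. These are the counts of genes with a start-site peak, with another peak, and with a start-site peak in Pax6-HIGH cells only. Other counts rest on all peaks, in lists of unequal length, unless another setting is named. The pileup is the number of fragments that cover the summit of a peak. The fold enrichment is that pileup over the background estimated there in the same pooled call, here called the local background. This background was the same at many peaks. For example, *Syt5* and an intronic peak of *Rab3c* in Pax6-HIGH cells both had pileup 49 and fold enrichment 3.91. The lowest pileup in the equal-number lists was 70, 30 and 41 fragments. A gene without a peak is one at which none was called at this depth, which does not show that its chromatin was closed. The labelled cell types were checked by start-site peaks at marker genes. Of 10 insulinoma markers 6, 4 and 1 had one in Pax6-HIGH, Pax6-ON and Pax6-OFF cells, with *Neurod1* and *Nkx2-2* in Pax6-HIGH cells only and the insulin genes *Ins1* and *Ins2* in none. Of 9 lens markers 3, 3 and 2 had one, and the defining *Cryaa* and *Foxe3* had none in any line. Of 8 renal markers 1, 0 and 2 had one, and *Pax8* had none in any line. Markers of neurons, which also carry this machinery, had start-site peaks at 2 of 5 genes in Pax6-HIGH cells, *Elavl3* and *Elavl4*, and at none in the other lines. What part these marker differences have in the counts below was not tested.

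In Pax6-HIGH cells 30 of the 39 genes (76.9%) had a start-site peak, against 45.9% of all protein-coding genes. In Pax6-ON cells 7 genes (17.9%) had one, close to the 21.2% of all genes. In Pax6-OFF cells only 4 genes (10.3%) had one, against 35.7% of all genes. The order of the lines thus differed between the secretory genes and the genome. With all peaks, Pax6-OFF cells stood between the other lines across all genes, whereas at the secretory genes they came last. With the equal-number lists, the count in Pax6-HIGH cells was 18 genes (46.2%, against 27.1% of all genes) and in Pax6-OFF cells 3 genes (7.69%, against 29.1%). The count in Pax6-ON cells, whose list sets the number, stayed at 7. In these lists the share of all genes was highest in Pax6-OFF cells (29.1%, against 27.1% and 21.2% in Pax6-HIGH and Pax6-ON cells). At the secretory genes Pax6-OFF cells still came last.

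**Figure D1:**
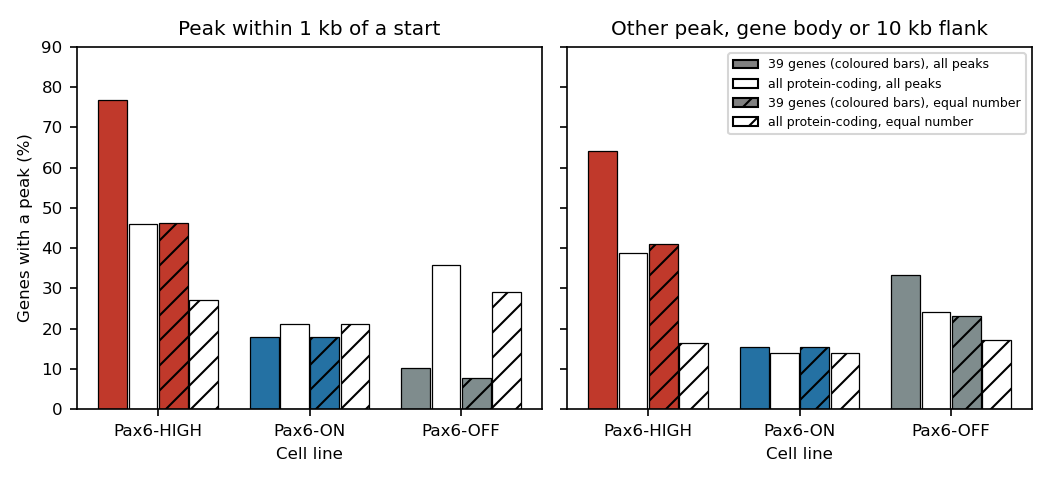
Share of genes with a start-site peak (left) and with another peak in the gene body or 10 kb on either side (right), in percent, for each cell line. Coloured bars are the 39 secretory genes and white bars all 22367 protein-coding genes, with all peaks (plain) or the equal-number lists (hatched), and at start sites the coloured bar is the higher in Pax6-HIGH cells (76.9% against 45.9%) and the lower in Pax6-OFF cells (10.3% against 35.7%).

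By combination of lines, 22 genes (56.4%) had a start-site peak in Pax6-HIGH cells and in no other line, against 10.9% of all genes. Another 4 genes (10.3%), *Scg2*, *Syt1*, *Syt7* and *Rims1*, had one in Pax6-HIGH and Pax6-ON cells, a combination found at 2.27% of all genes. *Rab3d* alone had one in Pax6-HIGH and Pax6-OFF cells, a combination found at 15.4% of all genes. In all 3 lines, 3 genes (7.69%) had one, *Cpe*, *Pam* and *Slc18a1*, against 17.3% of all genes. Start-site peaks in Pax6-OFF cells alone were found at none of the 39 genes and at 2.5% of all genes. No start-site peak was called in any line at 9 genes (23.1%), against 50.0% of all genes. With the equal-number lists, 12 genes (30.8%) had a start-site peak only in Pax6-HIGH cells, against 4.61% of all genes. No start-site peak was then called in any line at 20 of the 39 genes, and that share of all genes was not counted.

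**Figure D2:**
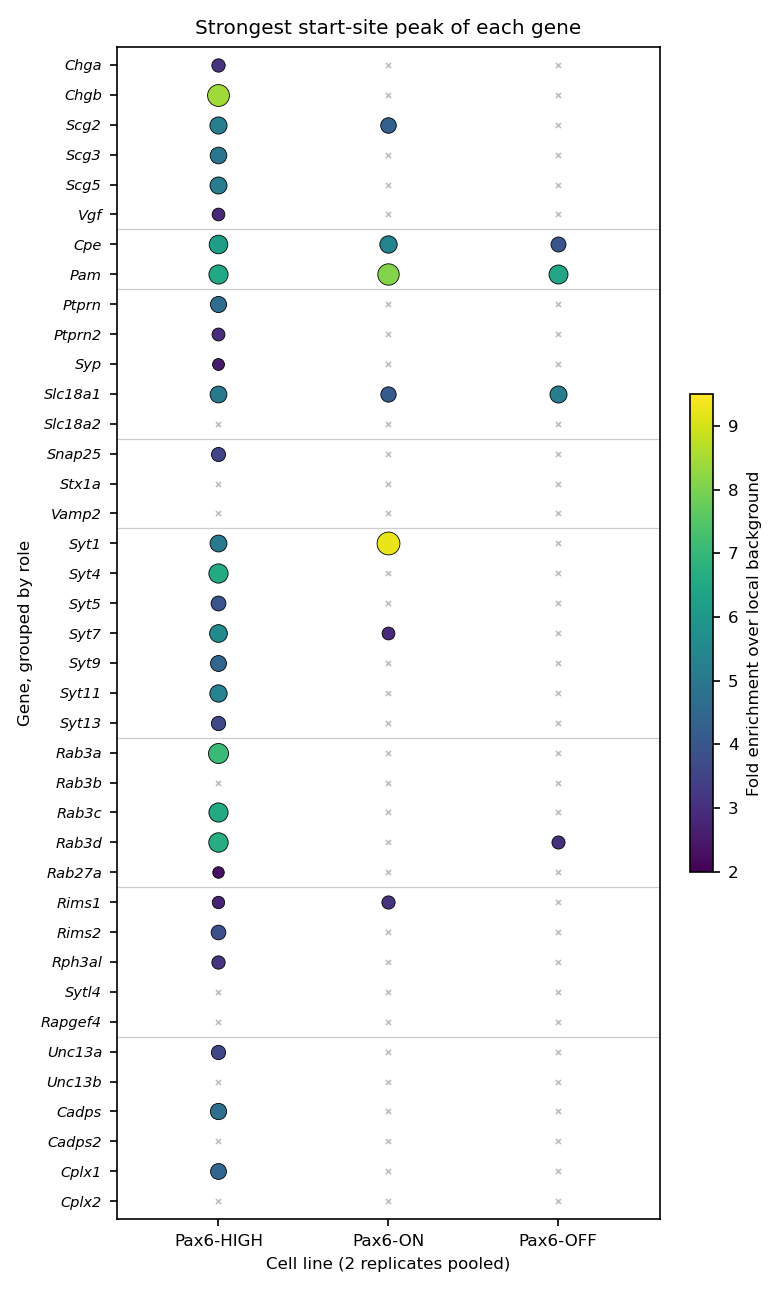
Fold enrichment over the local background (colour and size of the circle) of the strongest start-site peak of each of the 39 genes (rows, grouped by role) in each cell line (columns, 2 replicates pooled), with a cross where none was called. Circles fill most of the Pax6-HIGH column, from 2.35 at *Rab27a* to 8.44 at *Chgb*, and 7 and 4 places of the Pax6-ON and Pax6-OFF columns.

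By their medians, start-site peaks of the secretory genes were not stronger than those of all genes in the same line. The median fold enrichment of the strongest start-site peak in Pax6-HIGH cells was 4.66 over the 30 genes and 5.0 over the 10257 genes that had one. In Pax6-ON cells it was 4.28 for both sets, and in Pax6-OFF cells 4.56 for both. The median pileup in Pax6-HIGH cells was 80.0 fragments for both sets.

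The letters of RE1 were common near the starts of these genes, and the sites are shown here because several of the genes share them. After the 2 parts of RE1, TTCAGCACC and GGACAGC, had been counted in peaks, both were searched together on either strand, in this order and 0 to 10 bases apart, within 1 kb of each start. They were present without a mismatch at 8 of the 39 genes (20.5%), against 56 of all 22367 genes (0.25%). With up to 2 mismatches in the 16 letters and a gap of 2 bases also allowed, 13 genes (33.3%) had a match, against 225 of all genes (1.01%). Both searches were chosen after the counts of the separate parts had been seen. In the sites below, on mm9 (NCBIM37) and written 5′ to 3′ on the strand of the match, capitals mark the letters compared and lower case the gap. The first 8 have no mismatch, and those of *Ptprn* and *Vgf* have 1. The spacing of the 2 parts differs among the first 8. The gap is 2 bases at *Chga*, *Chgb* and *Snap25* only. It is 0 at *Scg2* and *Ptprn2*, 7 at *Cplx1*, and 8 at *Scg3* and *Unc13a*.

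Chga, chr12:103793448-103793465, plus strand: TTCAGCACCtcGGACAGC
Chgb, chr2:132607530-132607547, plus strand: TTCAGCACCccGGACAGC
Snap25, chr2:136540074-136540091, plus strand: TTCAGCACCgcGGACAGC
Scg2, chr1:79436600-79436615, plus strand: TTCAGCACCGGACAGC
Ptprn2, chr12:117724199-117724214, minus strand: TTCAGCACCGGACAGC
Scg3, chr9:75531753-75531776, minus strand: TTCAGCACCcgcggggcGGACAGC
Unc13a, chr8:74195626-74195649, plus strand: TTCAGCACCgggggcgcGGACAGC
Cplx1, chr5:108978689-108978711, plus strand: TTCAGCACCtcacgatGGACAGC
Ptprn, chr1:75259733-75259750, minus strand: TTCAGAACCatGGACAGC
Vgf, chr5:137506147-137506164, minus strand: TTCAGCACGctGGACAGC

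All 8 genes with an exact match had a start-site peak in Pax6-HIGH cells, 1 of them (*Scg2*) also in Pax6-ON cells and none in Pax6-OFF cells. Among all 56 genes with such a match, 35 (62.5%), 6 (10.7%) and 5 (8.93%) had a start-site peak in the 3 lines, in the same order. With mismatches allowed, all 13 secretory genes had a start-site peak in Pax6-HIGH cells, and *Scg2* stayed the only one with a start-site peak elsewhere. Of the 225 genes of the genome with such a match, 51.1%, 15.1% and 17.8% had one in the 3 lines. With the equal-number lists, *Chga*, *Scg3* and *Unc13a*, which have an exact match, had a start-site peak in no line. The same held for *Syp* and *Vgf*, whose matches have mismatches. The share of all genes with a match was not counted in these lists. The exact matches lay inside the Pax6-HIGH peak at 7 of the 8 genes, and that of *Snap25* lay just past the end of one. They lay as close as 3 bp to the start at *Ptprn2* and as far as 868 bp at *Snap25*. A match describes letters only, and binding of REST was not measured.

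**Figure D3:**
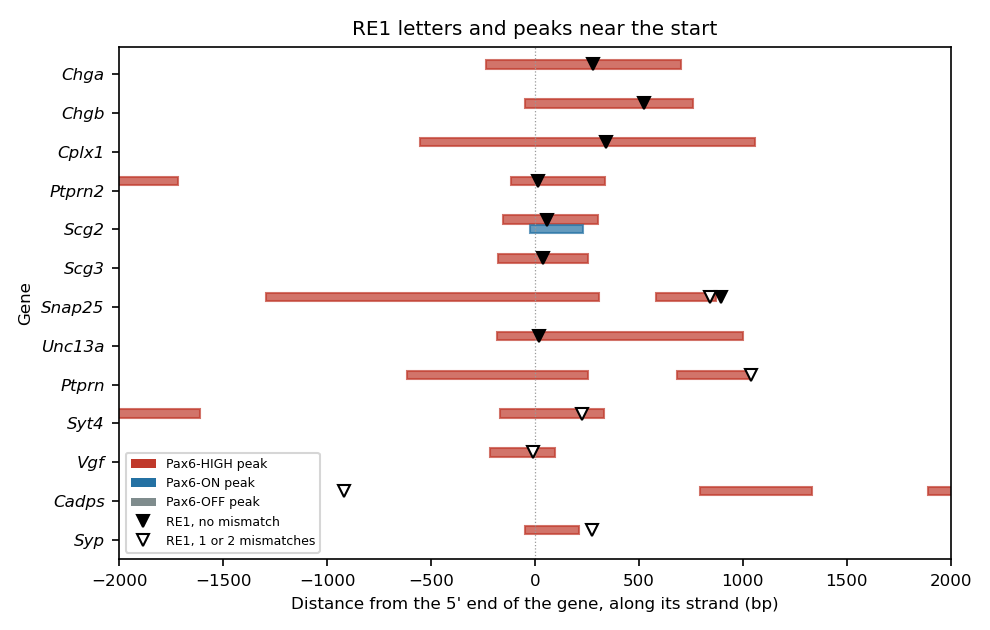
Position of RE1 letters (filled triangles, no mismatch, and open triangles, 1 or 2 mismatches) and of peaks (bars, coloured by cell line) at the 13 secretory genes with a match, by distance in bp from the 5′ end of the gene along its strand. Most triangles lie on a Pax6-HIGH bar, a Pax6-ON bar is seen at *Scg2* only, and no Pax6-OFF bar is seen.

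In the central 201 bp of start-site peaks the left part of RE1 was found in 4 of the 37 Pax6-HIGH peaks of the secretory genes (10.8%) and in 0.367% of all 9805 start-site peaks of that line. Its right part was in 7 peaks (18.9%), against 6.06%. The cAMP response element (CRE), TGACGTCA, was in 3 peaks (8.11%), those of *Chgb*, *Scg2* and *Vgf*, against 3.01%. The Sp/KLF motif GGGCGG was in 70.3% of the peaks, against 64.4%, and the CCAAT box in 16.2%, against 32.5%. Motifs were counted on both strands. The CpG content of the starts showed a further contrast. A gene was called CpG-rich where the CpG dinucleotides observed within 500 bp of its 5′-most start reached 0.6 of those given by base composition. This held for 20 of the 39 genes (51.3%), against 46.0% of all genes. Of the 20 CpG-rich secretory genes 16 (80.0%), 5 (25.0%) and 4 (20.0%) had a start-site peak in Pax6-HIGH, Pax6-ON and Pax6-OFF cells, against 77.6%, 36.8% and 64.1% of all CpG-rich genes. Of the 19 CpG-poor ones 14 (73.7%), 2 (10.5%) and 0 had one, against 18.8%, 7.87% and 11.6%. The gap to all genes of the same class was widest for CpG-poor genes in Pax6-HIGH cells, followed by CpG-rich genes in Pax6-OFF cells. The class was set at the 5′-most start only, whereas a peak at any start counted. *Rims1*, *Rph3al* and *Syt11*, all CpG-poor, had their start-site peaks at internal starts only. The other CpG-poor secretory genes lay not far under the cut of 0.6, from 0.476 at *Scg5* to 0.59 at *Ptprn*.

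The granins are acidic proteins that condense in the core of the granule. All 6 had a start-site peak in Pax6-HIGH cells, whereas 1 had one in Pax6-ON and none had one in Pax6-OFF cells. Of all protein-coding genes 45.9%, 21.2% and 35.7% had one in these lines. *Chgb*, chromogranin B, had the strongest start-site peak of the 39 genes in Pax6-HIGH cells by fold enrichment (8.44, pileup 150), above 99.1% of all peaks of that line. At *Chga*, chromogranin A, the start-site peak was weaker (3.14, pileup 55), and it left the equal-number list. *Scg2*, secretogranin II, had a peak of 5.21 (pileup 72) in Pax6-HIGH and of 4.28 (pileup 64) in Pax6-ON cells, and it is the granin with peaks in both *Pax6*-expressing lines. *Scg5* encodes 7B2, a chaperone of a prohormone convertase, and had a peak of 5.14 (pileup 91). *Scg3*, which helps to sort other granins, had one of 4.93 (pileup 62). *Vgf*, a precursor of several peptides, had one of 2.86 (pileup 42), and the peaks of *Scg3* and *Vgf* left the equal-number list too. The start-site sequences of *Chga* and *Vgf* are shown for their motifs and that of *Scg2* because it was open in 2 lines. They are outside UTRs, from mm9, on the strand of the gene, with capitals on the motifs searched. In *Chga* these are 2 copies of GGGCGG. In *Vgf* they are a CRE between 2 Sp/KLF motifs and, near the 3′ end, the right part of RE1 on the opposite strand, which belongs to the match shown above. The stretch of *Scg2* holds none of them, and the CRE of its peak lies outside it.

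Chga, chr12:103792969-103793169, plus strand: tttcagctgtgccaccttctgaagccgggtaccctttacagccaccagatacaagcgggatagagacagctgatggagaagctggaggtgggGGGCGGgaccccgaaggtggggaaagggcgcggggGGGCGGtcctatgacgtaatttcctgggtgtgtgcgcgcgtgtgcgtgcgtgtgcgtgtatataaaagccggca
Vgf, chr5:137506046-137506164, plus strand: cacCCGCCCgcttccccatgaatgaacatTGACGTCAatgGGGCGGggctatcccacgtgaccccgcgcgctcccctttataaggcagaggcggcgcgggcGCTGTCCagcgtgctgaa
Scg2, chr1:79436666-79436786, minus strand: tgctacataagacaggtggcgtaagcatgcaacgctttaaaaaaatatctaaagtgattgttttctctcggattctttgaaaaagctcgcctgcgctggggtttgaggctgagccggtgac

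The enzymes of the granule lumen were open in all 3 lines. *Cpe*, carboxypeptidase E, which trims basic residues from peptides, had start-site peaks of 6.15 (pileup 172) in Pax6-HIGH cells, 5.34 (pileup 80) in Pax6-ON cells and 3.97 (pileup 46) in Pax6-OFF cells. *Pam*, which amidates peptide ends, had peaks at the same 2 starts in each line. At the more upstream start the fold enrichment was 5.13, 6.68 and 6.4, in the order Pax6-HIGH, Pax6-ON and Pax6-OFF. At the internal start it was 6.51, 8.11 and 5.32.

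Among proteins of the granule membrane, *Ptprn* and *Ptprn2* encode the phosphatase-like proteins IA-2 and phogrin. *Ptprn* had start-site peaks of 4.61 (pileup 90) and 2.15 (pileup 44) in Pax6-HIGH cells and none in the other lines. *Ptprn2* had one of 2.94 (pileup 88), also only in Pax6-HIGH cells. *Syp*, synaptophysin, a vesicle membrane protein, had a weak start-site peak of 2.5 (pileup 31) there. The amine transporter genes *Slc18a1* and *Slc18a2* differed from each other. *Slc18a2* had no peak of either kind in any line. The start-site peak of *Slc18a1* had a fold enrichment of 5.02, 4.15 and 5.15 in Pax6-HIGH, Pax6-ON and Pax6-OFF cells, but it also lies at the start of *Atp6v1b2*, a subunit gene of the proton pump. With peaks at the start of another gene left out, a rule added after seeing the data, *Slc18a1* had no start-site peak in any line.

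Of the 3 core SNARE genes, *Snap25* had start-site peaks of 3.52 (pileup 76) and 2.84 (pileup 60), in Pax6-HIGH cells only. *Stx1a*, syntaxin 1A, had no peak of either kind in any line, and the nearest Pax6-HIGH peak lay 13465 bp from its start. *Vamp2*, the vesicle SNARE, had none at its start, and its other peak in all 3 lines lies at the start of the clock gene *Per1*, 6405 bp from the start of *Vamp2* in Pax6-HIGH cells. Of the partners in the fusion complex, *Snap25* was thus the only one with a start-site peak.

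All 7 synaptotagmin genes had a start-site peak in Pax6-HIGH cells, whereas 2 had one in Pax6-ON and none had one in Pax6-OFF cells. The highest pileup of any start-site peak of the 39 genes was at *Syt1*, a fast calcium sensor, with 301 fragments and a fold enrichment of 5.05 in Pax6-HIGH cells. In Pax6-ON cells its peak had 230 fragments and a fold enrichment of 9.25, the highest of the 39 genes there. *Syt7*, a sensor of high calcium affinity, had 5.56 (pileup 86) in Pax6-HIGH and 2.9 (pileup 43) in Pax6-ON cells. The other 5 had start-site peaks in Pax6-HIGH cells only. By fold enrichment these were *Syt4* with 6.56 (pileup 148), *Syt11* with 5.32 (pileup 67) and *Syt9* with 4.49 (pileup 80). *Syt5* had 3.91 (pileup 49) and *Syt13* had 3.64 (pileup 57). The peak of *Syt11* lay at an internal start and was lost when only the 5′ end of the gene was used. The start of *Syt1* is shown because it was open in both *Pax6*-expressing lines. Capitals mark 2 CCAAT boxes, of which the first reads on the opposite strand.

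Syt1, chr10:108448053-108448253, minus strand: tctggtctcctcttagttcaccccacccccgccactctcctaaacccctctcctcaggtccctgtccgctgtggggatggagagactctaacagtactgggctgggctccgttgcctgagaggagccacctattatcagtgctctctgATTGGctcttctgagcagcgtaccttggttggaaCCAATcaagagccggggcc

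Rab GTPases mark the granule for docking. *Rab3a* (7.07, pileup 114), *Rab3c* (6.52, pileup 103) and *Rab27a* (2.35, pileup 29) had start-site peaks in Pax6-HIGH cells only. *Rab3d* had one of 6.68 (pileup 96) in Pax6-HIGH and of 3.04 (pileup 35) in Pax6-OFF cells, and that in Pax6-OFF cells left the equal-number list. *Rab27a* had the lowest fold enrichment of the 30 genes and lost its peak at a q-value below 0.001. *Rab3b* had no start-site peak in any line, but a peak of 6.46 (pileup 84) in its intron, 15832 bp past the nearest start, in Pax6-HIGH cells only. Of the genes grouped with Rab effectors, *Rims1* had 2.73 (pileup 36) in Pax6-HIGH and 3.1 (pileup 46) in Pax6-ON cells, at an internal start. It kept only the Pax6-ON peak in the equal-number lists and had none with only the 5′ end of the gene. *Rims2* had 4 start-site peaks in Pax6-HIGH cells, the strongest 3.83 (pileup 48). *Rph3al*, also called Noc2, had 3.13 (pileup 39) at a summit 1054 bp upstream of an internal start. This peak left the equal-number list. It was also lost with only the 5′ end of the gene, with a window of 500 bp and when peaks were placed by their summit. *Sytl4*, granuphilin, had no peak of either kind in any line. *Rapgef4*, the cAMP sensor Epac2 that links cAMP to exocytosis, had no start-site peak, yet a Pax6-HIGH peak of 5.46 (pileup 88) stood 2248 bp inside the gene and counted as a start-site peak with a 2 kb window.

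Priming factors make docked granules ready for fusion. In Pax6-HIGH cells 3 of the 6 genes of this group, complexins included, had a start-site peak, against 45.9% of all genes. With the equal-number lists 2 had one, against 27.1%. With all peaks, a single member of each pair of paralogs had one in Pax6-HIGH cells, and the partner had none in any line. *Unc13a* had 3.61 (pileup 59), a peak that left the equal-number list, and *Unc13b* no peak of either kind. *Cplx1*, complexin 1, had 4.47 (pileup 80) and *Cplx2* no peak of either kind. *Cadps* had 4.72 (pileup 106), with the summit 1120 bp inside the gene, and lost it with a window of 500 bp or when peaks were placed by their summit. *Cadps2* had no start-site peak in any line, but 11 other peaks in Pax6-HIGH cells, the most of the 39 genes. It is the only one of them on chromosome 6, where Pax6-HIGH cells had 27.9 peaks per Mb, against 9.51 on the other chromosomes. Pax6-ON and Pax6-OFF cells had 4.35 and 4.51 there. The part of this excess in the *Cadps2* peaks was not tested.

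Away from the starts, 25 genes (64.1%) had another peak in Pax6-HIGH cells, against 38.8% of all genes. In Pax6-ON cells 6 genes (15.4%) had one, against 14.0%, and in Pax6-OFF cells 13 (33.3%), against 24.2%. With the equal-number lists the counts were 16 genes (41.0%, against 16.5%) in Pax6-HIGH and 9 (23.1%, against 17.1%) in Pax6-OFF cells. These genes are long, and length sets how many peaks can fall in a gene. Per 100 kb of gene and flank the 39 genes held 1.13 other peaks in Pax6-HIGH cells, close to the 1.07 of all genes. They held 0.171 in Pax6-ON cells, against 0.296, and 0.403 in Pax6-OFF cells, against 0.499. Per length, other peaks were thus about as dense as elsewhere in Pax6-HIGH cells and sparser in the other lines.

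**Figure D4:**
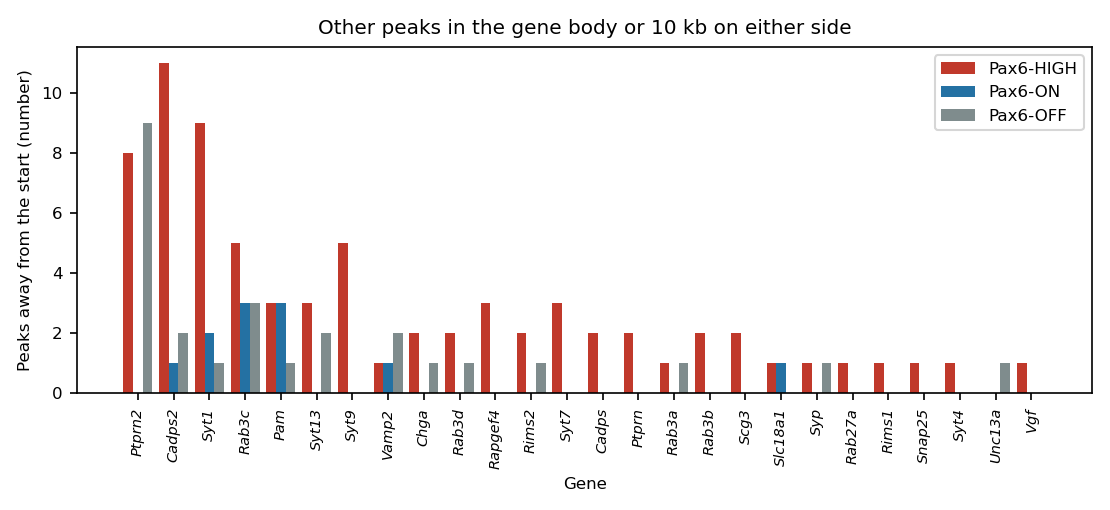
Number of peaks away from the start, in the gene body or 10 kb on either side, for each gene that had any, in Pax6-HIGH (red), Pax6-ON (blue) and Pax6-OFF cells (grey). Red bars are the tallest at most genes, up to 11 at *Cadps2*, and *Ptprn2* has the most grey ones, 9 against 8 red.

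The 73 other peaks in Pax6-HIGH cells were spread unevenly. *Cadps2* had 11, *Syt1* 9, *Ptprn2* 8, and *Rab3c* and *Syt9* 5 each. Of the 26 in Pax6-OFF cells *Ptprn2* had 9, *Rab3c* 3, and *Cadps2*, *Syt13* and *Vamp2* 2 each. Of the 11 in Pax6-ON cells *Pam* and *Rab3c* had 3 each, *Syt1* had 2, and *Cadps2*, *Slc18a1* and *Vamp2* 1 each. At *Ptprn2* the lines differed in place, since only 1 site was shared between Pax6-HIGH and Pax6-OFF cells. *Ptprn2* and *Syt1* in Pax6-OFF cells were thus open within the gene while no peak was called at the start. Sharing of sites between lines differed by line. Of the Pax6-HIGH start-site peaks 9 of 37 (24.3%) overlapped a peak of another line, against 71.3% of all start-site peaks of that line, and of the other peaks 11 of 73 (15.1%), against 30.1%. In Pax6-OFF cells 11 of 26 other peaks (42.3%) did, against 70.1%, whereas in Pax6-ON cells 7 of 11 (63.6%) did, against 62.4%. All 8 start-site peaks of the secretory genes in Pax6-ON cells and all 5 in Pax6-OFF cells overlapped a peak of another line, against 93.4% and 90.9% of all start-site peaks of those lines.

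Several granule genes had strong Pax6-HIGH peaks away from the start. *Chga* had peaks of 5.68 (pileup 77) and 5.07 (pileup 89) at 8428 and 3682 bp upstream, each above the 3.14 of its start-site peak. *Syp* had an intronic peak of 7.5 (pileup 95), against 2.5 at its start, and this site was also open in Pax6-OFF cells (3.46, pileup 40). *Syt13* had one of 5.99 (pileup 130) at 33068 bp, against 3.64 at its start, and *Rims2* one of 6.83 (pileup 102). *Syt1* had one of 6.72 (pileup 202) deep in its intron, 329125 bp from the start. *Scg3* had one of 5.71 (pileup 72) in an intron and *Syt9* one of 6.02 (pileup 106). At these genes the strongest site by fold enrichment was therefore not the start. *Pam* had an intronic peak of 7.12 (pileup 209) in Pax6-HIGH cells only, and at another intronic site it had peaks in both other lines, of 7.05 (Pax6-ON) and 5.32 (Pax6-OFF). Some sites of this kind are shown as the centre of the peak on the strand of the gene, with capitals on the motifs searched. They are the site upstream of *Chga* with an E-box of the NeuroD kind (CAGATG, here on the opposite strand), the intron of *Rab3b* with an AP-1 motif (TGANTCA) and a Sp/KLF motif, and a site of *Syt1* open in Pax6-ON cells only, with 2 AP-1 motifs and a CCAAT box.

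Chga upstream, chr12:103784651-103784851, plus strand: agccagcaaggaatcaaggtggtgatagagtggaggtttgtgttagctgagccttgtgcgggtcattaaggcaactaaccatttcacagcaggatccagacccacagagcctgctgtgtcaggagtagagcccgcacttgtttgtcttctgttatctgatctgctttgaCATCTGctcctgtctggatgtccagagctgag
Rab3b intron, chr4:108578627-108578827, plus strand: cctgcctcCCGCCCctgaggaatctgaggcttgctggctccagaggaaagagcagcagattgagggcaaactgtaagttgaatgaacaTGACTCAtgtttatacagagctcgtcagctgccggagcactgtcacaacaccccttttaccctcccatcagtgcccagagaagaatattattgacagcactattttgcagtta
Syt1 intron, chr10:108366829-108367029, minus strand: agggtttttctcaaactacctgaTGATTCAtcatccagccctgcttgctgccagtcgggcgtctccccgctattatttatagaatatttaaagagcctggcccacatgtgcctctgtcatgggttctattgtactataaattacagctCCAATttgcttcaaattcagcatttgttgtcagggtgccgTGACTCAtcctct

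**Figure D5:**
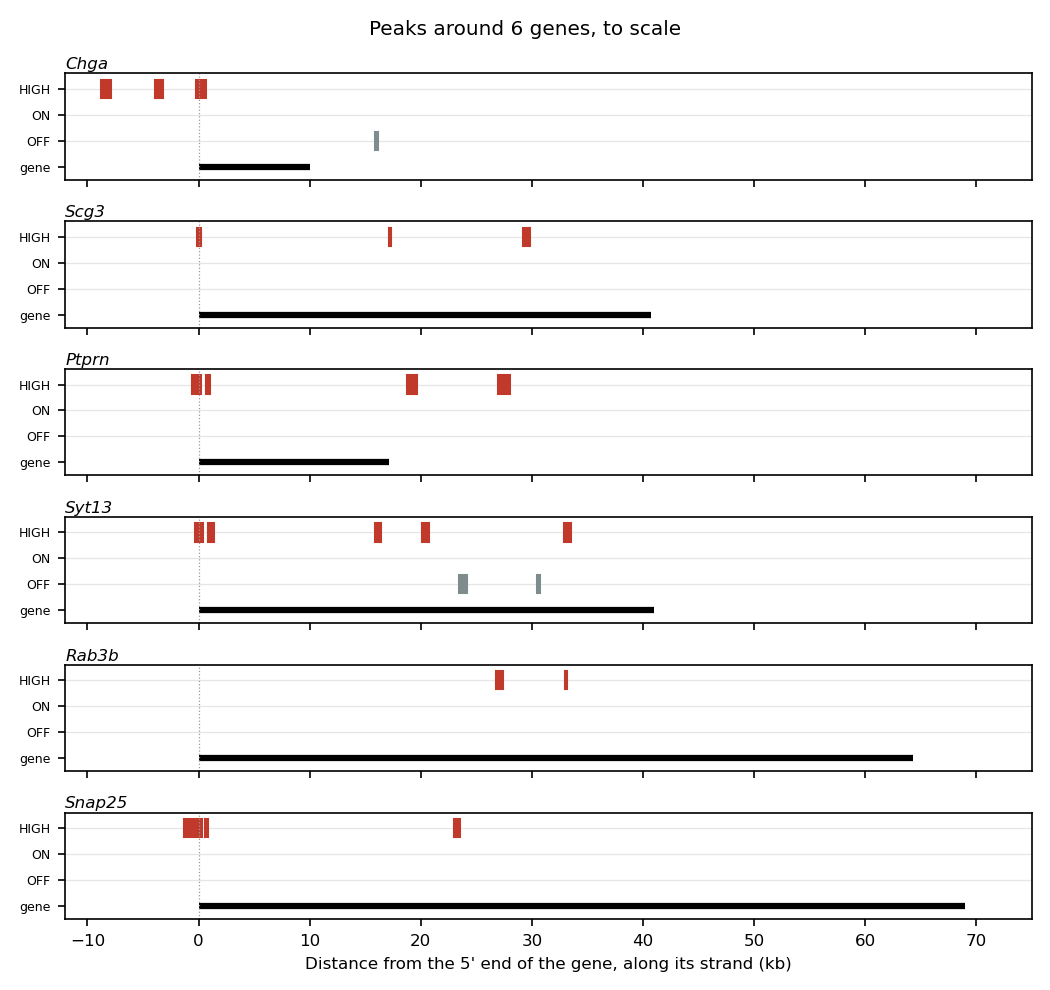
Peaks of Pax6-HIGH (red), Pax6-ON (blue) and Pax6-OFF cells (grey) around *Chga*, *Scg3*, *Ptprn*, *Syt13*, *Rab3b* and *Snap25*, by distance in kb from the 5′ end of the gene along its strand, to scale, with the gene as a black bar. Only peaks in the gene body or 10 kb on either side are drawn, so blank space beyond does not show that no peak is there. Red peaks lie at the start of all but *Rab3b*, whose red peaks are in an intron, and none of the peaks drawn is blue.

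No peak of either kind was called in any line at 5 genes (12.8%), *Cplx2*, *Slc18a2*, *Stx1a*, *Sytl4* and *Unc13b*, against 32.6% of all genes. Among the other genes of exocytosis, a list of 67 of which 66 were annotated, 32 (48.5%), 14 (21.2%) and 26 (39.4%) had a start-site peak in Pax6-HIGH, Pax6-ON and Pax6-OFF cells. These shares were near the 45.9%, 21.2% and 35.7% of all genes given above. A start-site peak in Pax6-HIGH cells and in no other line was found at 12 of the 66 genes (18.2%), against 10.9% of all genes. The groups of this list are small and are given in the same order of lines. The exocyst, a tethering complex that all cells use, had start-site peaks at 7, 4 and 8 of its 8 genes. Other SNARE genes had them at 7, 4 and 7 of 10, and their regulators at 8, 4 and 5 of 11. Other synaptotagmin and Doc2 genes had them at 3, 0 and 1 of 12, other Rabs and effectors at 2, 1 and 2 of 14, and other granule and vesicle genes at 5, 1 and 3 of 11.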

How the data were processed

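Open chromatin was measured by ATAC-seq in 6 libraries, 2 for each cell line, with 75 bp paired-end reads after 11 PCR cycles. The submitters' processing notes name Trim Galore 0.4.1, Bowtie2 2.2.6, SAMtools 1.6, bedtools and MACS2 2.1.1, and the build is mm9. The authors pooled the replicates of each line and called peaks on whole fragments without a control library, at a q-value of 0.05, with all duplicate reads in the input kept and a local background of 6250 bp. No shift for the Tn5 insertion site was made, which can move peak edges. The deposited pileup is a signal in fragments, not scaled for depth, so it was not compared between lines as a level. The deposited fold enrichment is a ratio to the local background, and the authors' q-values are deposited as −log10 values. The calls rest on 100254099 to 130955836 fragments per line, and no peak had a pileup under 25.

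Genes and start sites came from GENCODE M1 on NCBIM37, the assembly of mm9, and an overlap of at least 1 bp placed a peak. Sequences were read from that assembly with pysam 0.24.0, and counts were made with pandas 2.3.3 in Python 3.11.15. The steps were tested on simulated data. The 39 genes, the lists of other exocytosis genes, the markers and the motifs were chosen with earlier results of these data known. Every gene was named by its role, with values for those that had a start-site peak in 1 or 2 lines, the 5 with the strongest start-site peak and the 5 with the most other peaks in each line. Genes were not tested against each other or against the genome, because pooled calls leave no replicate spread. Alternatives were equal-number lists, a stricter q-value, other start sites, windows and flanks, and, added after seeing the data, leaving out start-site peaks that lie at another gene. Second copies of the peak lists were not used, and other assays of the study were not analysed here.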

Additional observations from a re-analysis of the deposited data

How the results depend on the processing

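No paired analysis was possible because both replicates of each line were pooled in 1 peak call, and for the same reason no replicate could be left out. Over 12 alternatives, 101 of 117 counts stayed within 1.5 times the reported one. With the 9821 peaks of highest pileup, Pax6-HIGH cells had a start-site peak at 18 genes, another peak at 16 genes and 20 other peaks in all, and Pax6-OFF cells had 14 other peaks. Then 12 genes had a start-site peak in Pax6-HIGH cells only and 20 in no line. With the 9821 peaks of smallest q-value, these counts were 17 genes with a start-site peak and 22 other peaks in Pax6-HIGH cells, 15 other peaks in Pax6-OFF cells, 11 genes in Pax6-HIGH cells only and 21 in no line. Fewer peaks enter under both, by construction. With a flank of 50 kb, there were 138 other peaks in Pax6-HIGH cells, 26 at 16 genes in Pax6-ON cells and 62 at 25 genes in Pax6-OFF cells, as more sequence enters. Under all other alternatives the number of genes with a start-site peak in Pax6-HIGH cells was 27 to 31. Weak peaks left the shorter lists. *Chga*, *Rab27a*, *Rims2*, *Rph3al*, *Scg3*, *Syp*, *Syt5*, *Syt13*, *Unc13a* and *Vgf* had a start-site peak in no line under both equal-number lists, and *Rims1* had one in Pax6-ON cells only. No alternative varied the depth, and no site under the lowest pileup of 25 to 30 fragments could be called.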

Other observations

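The motifs of peaks away from the starts were counted in the central 201 bp, on both strands. In Pax6-ON cells the AP-1 motif TGANTCA, bound by Fos and Jun proteins, was in 8 of the 11 other peaks of the secretory genes (72.7%), against 29.6% of all 3628 other peaks at genes in that line. In Pax6-HIGH cells it was in 12 of 73 (16.4%), against 10.6%, and in Pax6-OFF cells in 5 of 26 (19.2%), against 14.7%. The NeuroD E-box CAGATG was in 19 of the 73 Pax6-HIGH peaks (26.0%), against 20.0%, in 2 of the 11 Pax6-ON peaks (18.2%), against 14.0%, and in 5 of the 26 Pax6-OFF peaks (19.2%), against 10.6%. The FOX motif TGTTTAC was in 7 Pax6-HIGH peaks (9.59%), against 5.59%, and in none of the Pax6-ON and Pax6-OFF peaks, against 2.34% and 1.32%. Neither the CRE nor the left part of RE1 was found in any of the 73 Pax6-HIGH peaks. The counts in Pax6-ON and Pax6-OFF cells are small, and 7 of the 11 Pax6-ON sites were also open in another line.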
